A study of Mus musculus with 12 samples.

Results

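The genes of mouse chromosome 11 were followed across 3 *Xist*‐TetOP embryonic stem (ES) cell lines. Members were selected on their expression level, as the chromosome 11 genes that reached 1 CPM (a count scaled to library size) in 6 or more of the 12 RNA‐seq libraries. The count files list 1843 chromosome 11 genes, and 1113 of them were members. The other 18 autosomes gave 11608 genes under the same filter, and 13191 genes were tested in all. Of the 730 chromosome 11 genes that did not pass, 186 were at 0 in all 12 libraries, and 1016 members reached 1 CPM in every library. Just inside the filter, with exactly 6 libraries at 1 CPM, lay 15 genes such as *Krt222* (mean 1.08 CPM) and *Lhx1* (1.07 CPM), and just outside it, with exactly 5, lay 13 genes such as *Epx* (1.17 CPM) and *Cntnap1* (0.857 CPM). Because chromosome 11 was singled out for its difference between the lines, the differences between lines below are descriptions. Counts of called genes are given for them to set their size against the spread between libraries, and nothing is read from those counts. The response to doxycycline (DOX) was not used to choose the members and was tested.

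All 3 lines are J1 XY ES cells in which a tetracycline‐inducible promoter drives *Xist* from its endogenous locus. *Xist* FL carries the full‐length gene, *Xist* ΔA lacks the A repeat, and *Xist* ΔB+C lacks the B and C repeats and was made from *Xist* FL by CRISPR/Cas9 and single‐clone picking. Cells were collected at day 2 of differentiation by LIF withdrawal, either untreated (noDOX) or treated with DOX at 1.5 μg/ml, with 2 replicates in each of the 6 groups. Each genotype was profiled as a single line, so a deletion and any other difference that a line carries cannot be told apart.

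Mouse ES cells in culture can gain or lose whole chromosomes, and chromosome 11 is among those gained recurrently. When an extra copy is present, most genes on it are transcribed in proportion to the number of copies. Their levels then move together whatever their function. A regulatory change can reach a subset of genes or, as *Xist* does on the X chromosome, genes along a whole chromosome. The cause of the values below was not tested. Chromosome 11 is gene‐dense and carries, among others, *Trp53*, *Stat3*, *Brca1*, *Suz12*, the *Hoxb* cluster, many keratin genes and the imprinted gene *Grb10*. DNA copy number was not measured here, and the values below are RNA levels only.

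Libraries held between 31337490 and 41240470 counts. *Xist* itself lay between 2.44 and 8.38 CPM in the noDOX libraries and between 557 and 1830.1 CPM in the DOX libraries of all 3 lines. The *Xist* ΔB+C DOX replicate 2 library, made from 100 ng of RNA by a low input method against 1000 ng for the others, stood apart from the other *Xist* ΔB+C libraries on chromosome 11, and the chromosome‐wide values that rest on it are also given without it. The 6 ES cell markers, among them *Pou5f1*, summed to 3714 to 4354 CPM in *Xist* FL, 4587 to 4733 CPM in *Xist* ΔA, above both other lines, and 3429 to 4242 CPM in *Xist* ΔB+C. The 4 primitive endoderm markers summed to 5.69 to 10.99 CPM, 8.23 to 9.65 CPM and 11.1 to 22.5 CPM in the same order of lines. *Lum*, a defining fibroblast marker, lay between 0 and 0.08 CPM, and the 5 fibroblast markers together summed to 19.3 to 52.9 CPM in *Xist* FL, 9.84 to 16.8 CPM in *Xist* ΔA and 22.9 to 39.9 CPM in *Xist* ΔB+C. The part of these markers in the differences between lines was not tested. In such bulk samples, fewer cells of a type and less RNA per cell cannot be told apart.

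Chromosome 11 took a different share of the autosomal counts in each line. In *Xist* FL it took 12.6%, 12.7%, 12.8% and 13.1% (in the order noDOX replicates 1 and 2, then DOX replicates 1 and 2, which is kept below), with a mean of 12.8% ± 0.240 (SD, n = 4). In *Xist* ΔA it took 9.95%, 9.95%, 9.98% and 9.91%, with a mean of 9.95% ± 0.0295. In *Xist* ΔB+C it took 11.2%, 11.3%, 11.5% and 12.1%, with a mean of 11.5% ± 0.387, or 11.3% ± 0.146 (SD, n = 3) without the low input library. No library of one line reached the range of another. The 95% Wilson interval of a single library was narrow, for example 12.58% to 12.60% in the first *Xist* FL library, and covers counting error only.

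The same order appeared when each gene was given equal weight. Each member's log2 (CPM + 0.5) was set against its mean over the 12 libraries, and the median over members was compared with that over the other autosomes. This median deviation was 0.12, 0.17, 0.18 and 0.26 in the *Xist* FL libraries. It was −0.24, −0.20, −0.23 and −0.20 in *Xist* ΔA. In *Xist* ΔB+C it was −0.05, 0.01, 0.02 and 0.16, the last from the low input library. The *Xist* ΔA libraries were all below 0 and the *Xist* FL libraries all above it, while the low input library lay inside the *Xist* FL range.

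**Figure D1:**
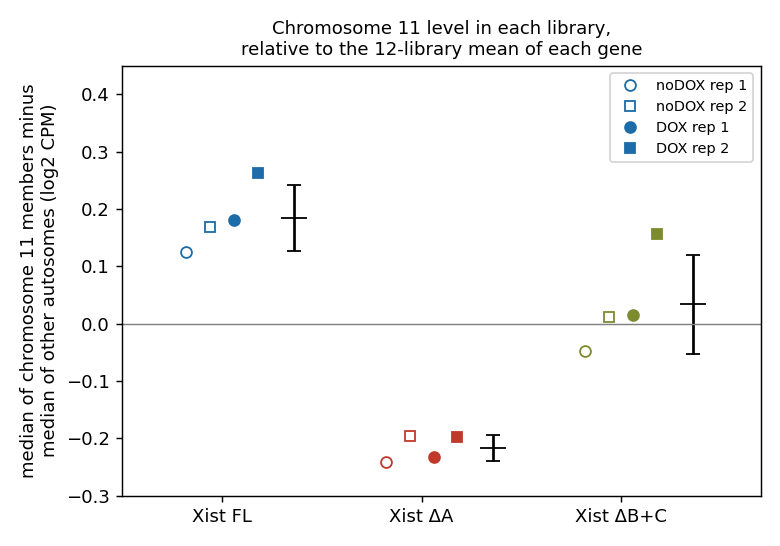
Median log2 deviation of the 1113 chromosome 11 members in each library, minus that of the other autosomes, by line; open symbols are noDOX, filled symbols DOX, circles replicate 1, squares replicate 2, and the bar gives the mean and SD of 4 libraries. The *Xist* ΔA libraries sit between −0.24 and −0.20 and the *Xist* FL libraries between 0.12 and 0.26.

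Lines were next subtracted within treatment and replicate number, which gives 4 differences per pair of lines. The chromosome 11 shift is the median difference of the members minus the median of the other autosomes. For *Xist* ΔA minus *Xist* FL the 4 shifts were −0.35, −0.37, −0.41 and −0.46, a mean of −0.40 ± 0.048 (SD, n = 4) on the log2 scale and a ratio of 0.759. For *Xist* ΔB+C minus *Xist* FL they were −0.17, −0.16, −0.17 and −0.10, a mean of −0.15 ± 0.035 and a ratio of 0.902. For *Xist* ΔB+C minus *Xist* ΔA they were 0.19, 0.21, 0.25 and 0.34, a mean of 0.25 ± 0.066 and a ratio of 1.19. The 3 pairs share libraries, so the last follows from the others. Without the DOX replicate 2 libraries the means were −0.38, −0.17 and 0.22.

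As an arithmetic reference, a ratio of 3 copies to 2 is 0.58 on the log2 scale, and a ratio of 4 copies to 3 is 0.42. The difference between *Xist* ΔA and *Xist* FL lay close to the second value and the difference between *Xist* ΔB+C and *Xist* FL lay below both. Counts of copies cannot be read from these ratios, since the share of cells that carry a given number of copies was not measured.

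Chromosome 11 had the largest shift of the 19 autosomes between *Xist* ΔA and *Xist* FL. The other autosomes lay between −0.15 (chromosome 8) and 0.17 (chromosome 12), and 14 of the 18 lay within 0.1 of 0. Between *Xist* ΔB+C and *Xist* FL chromosome 11 ranked second, behind chromosome 14 at −0.24 ± 0.066, with chromosomes 19, 8 and 6 shifted the opposite way by 0.13, 0.12 and 0.12. Between *Xist* ΔB+C and *Xist* ΔA 2 autosomes exceeded it, chromosome 19 at 0.27 ± 0.094 and chromosome 8 at 0.27 ± 0.025. In the pairs that include *Xist* ΔB+C, other autosomes were thus shifted by as much as chromosome 11.

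**Figure D2:**
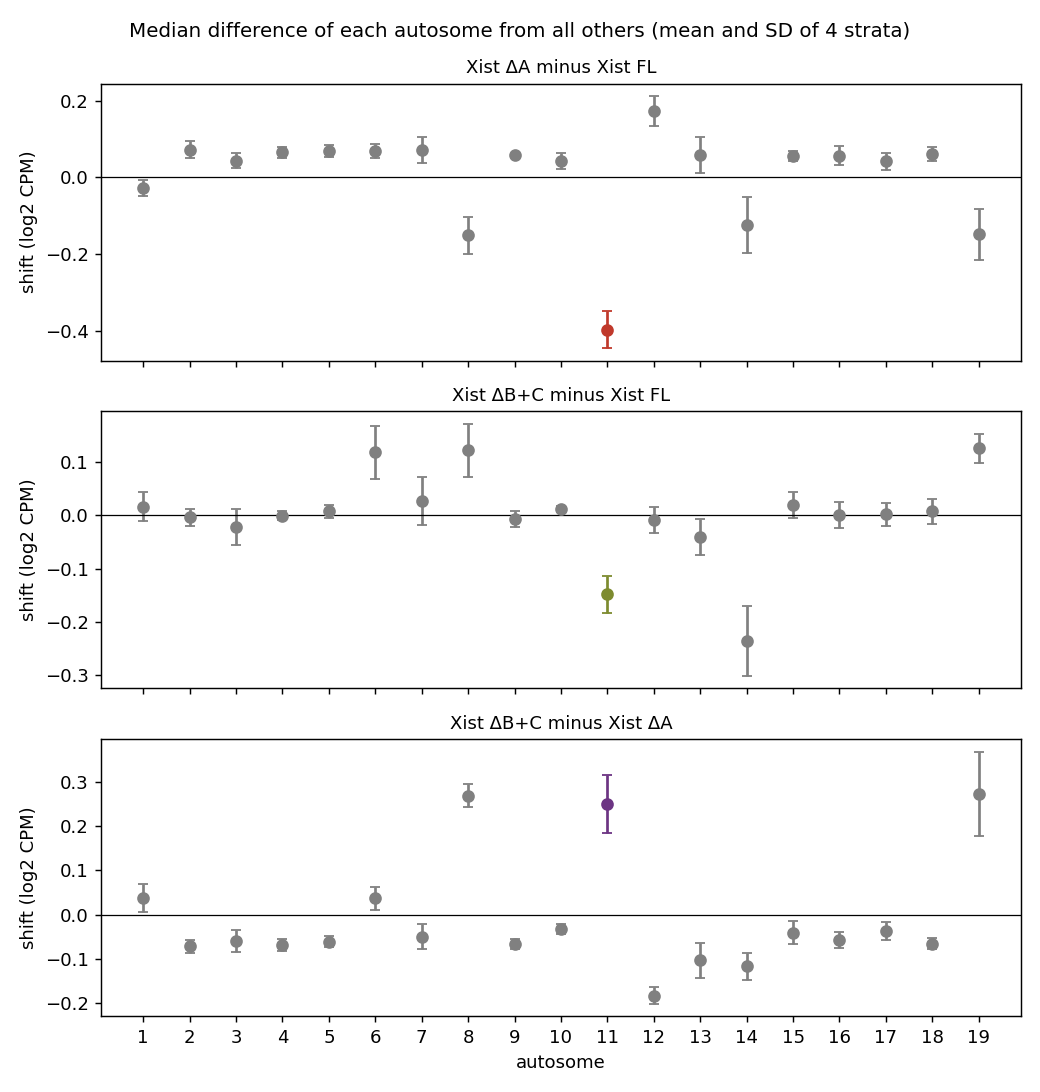
Shift of each autosome (median log2 difference of its genes minus that of all other autosomes; mean and SD of 4 differences) for the 3 pairs of lines, with chromosome 11 in color. Chromosome 11 stands at −0.40, −0.15 and 0.25 from top to bottom, and chromosomes 8, 12, 14 and 19 also leave the band around 0.

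The difference between *Xist* ΔA and *Xist* FL covered nearly all members. Relative to the median of the other autosomes, 1016 of the 1113 members (91.3%) were lower in *Xist* ΔA, and 827 (74.3%) were lower in all 4 subtractions, against 24.5% of the genes on the other autosomes. Only 34 members (3.05%) were higher in all 4 subtractions, against 24.5% elsewhere. Between *Xist* ΔB+C and *Xist* FL, 928 members (83.4%) were lower in the former, 548 of them in all 4 subtractions. In *Xist* ΔB+C minus *Xist* ΔA, 930 members (83.6%) were higher, 631 of them in all 4 subtractions. The order *Xist* FL above *Xist* ΔB+C above *Xist* ΔA held in 759 members (68.2%), against 17.2% of the genes on the other autosomes. For subtractions, here and below, leaving out the low input library removed the whole DOX replicate 2 subtraction, so that 3 remained. *Xist* ΔB+C was then below *Xist* FL in 956 members (85.9%) and above *Xist* ΔA in 912 (81.9%). The order, taken with all libraries of the other lines kept, held in 787 (70.7%) without the low input library.

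The libraries of 2 lines often did not overlap at all. All 4 *Xist* FL libraries exceeded all 4 *Xist* ΔA libraries in 622 members, where 15.6% of all tested genes did so, and the reverse held in 21 members, where the background was 12.5%. *Xist* FL exceeded *Xist* ΔB+C in 163 members (background 4.44%) and the reverse held in 0 (background 2.33%). *Xist* ΔB+C exceeded *Xist* ΔA in 350 members (background 13.1%) and the reverse held in 29 (background 11.5%). Without the low input library, fewer libraries had to be apart, and the backgrounds rose as well. *Xist* FL then exceeded *Xist* ΔB+C in 263 members (background 6.52%) and the reverse held in 2 (background 3.46%). *Xist* ΔB+C exceeded *Xist* ΔA in 380 members (background 15.96%) and the reverse held in 41 (background 14.3%). As the members were singled out on these contrasts, nothing is read from the counts beyond the description.

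The whole distribution of differences was displaced, not its tail alone. Members minus other autosomes gave −0.35 at the 5th percentile of the *Xist* ΔA minus *Xist* FL differences, −0.37 at the 25th, −0.40 at the 50th, −0.40 at the 75th and −0.40 at the 95th. The interquartile range was 0.348 for members and 0.375 for the other autosomes, so members varied among themselves about as much as other genes did. For *Xist* ΔB+C minus *Xist* FL the offsets ran from −0.11 at the 5th to −0.17 at the 95th percentile. For *Xist* ΔB+C minus *Xist* ΔA they ran from 0.30 at the 5th to 0.18 at the 95th percentile, the widest drift of the 3 pairs. Leaving out the low input library gave offsets from −0.14 to −0.19 and from 0.26 to 0.12 for these pairs.

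**Figure D3:**
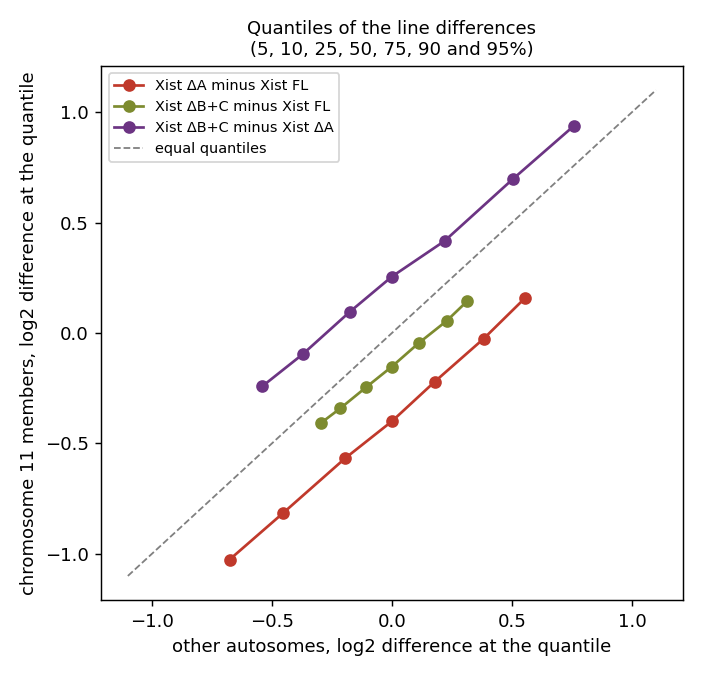
Quantiles of the log2 difference between lines in chromosome 11 members (vertical axis) against the same quantiles in genes of the other autosomes (horizontal axis); each point is 1 quantile from 5% to 95%. The *Xist* ΔA minus *Xist* FL points run parallel to the dashed line of equal quantiles, 0.35 to 0.41 below it.

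Expression level made little difference. All tested autosomal genes were split into 5 equal bins by mean CPM. From the lowest to the highest bin, members minus other autosomes in the same bin were −0.34 ± 0.046, −0.38 ± 0.066, −0.42 ± 0.068, −0.42 ± 0.047 and −0.41 ± 0.041 (SD, n = 4) for *Xist* ΔA minus *Xist* FL. The lowest bin, with 237 members of 0.757 to 5.07 CPM, gave the smallest offset, and its difference from the highest bin was of the size of the spread between subtractions. The spread between members narrowed from an interquartile range of 0.641 in the lowest bin to 0.254 in the highest. The 5 bins lay between −0.17 and −0.13 for *Xist* ΔB+C minus *Xist* FL, and for *Xist* ΔB+C minus *Xist* ΔA between 0.22 and 0.28. These ranges were −0.19 to −0.14 and 0.19 to 0.24 without the low input library. The shift also did not rest on the genes with the most counts. The 10 members with the highest mean CPM held 20.8% of the summed CPM of all chromosome 11 genes in the count files. The shift computed from summed counts was −0.41 with them and −0.39 without them for *Xist* ΔA minus *Xist* FL.

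Transcript length and position made little difference too. In 4 bins of exonic length, members minus other autosomes gave −0.42, −0.40, −0.37 and −0.38 from shortest to longest for *Xist* ΔA minus *Xist* FL. Of the members, 1104 had a position in GENCODE vM21 (mm10), and they were split into 10 bins by gene order. The 10 medians lay between −0.42 and −0.35 for *Xist* ΔA minus *Xist* FL, between −0.18 and −0.12 for *Xist* ΔB+C minus *Xist* FL, and between 0.18 and 0.32 for *Xist* ΔB+C minus *Xist* ΔA. No bin had a median of the opposite sign in any pair. In the last pair the first 3 bins (0.23, 0.21 and 0.18) lay below the other 7 (0.24 to 0.32). The single subtractions of the second bin lay between 0.16 and 0.19, below those of 5 of the later 7 bins, while those of the first and the third bins (0.14 to 0.33 and 0.16 to 0.26) overlapped with all 7. Without the low input library the bins lay between −0.20 and −0.14 for *Xist* ΔB+C minus *Xist* FL, and in the last pair the first 3 were at 0.20, 0.20 and 0.18 and the other 7 between 0.22 and 0.27.

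**Figure D4:**
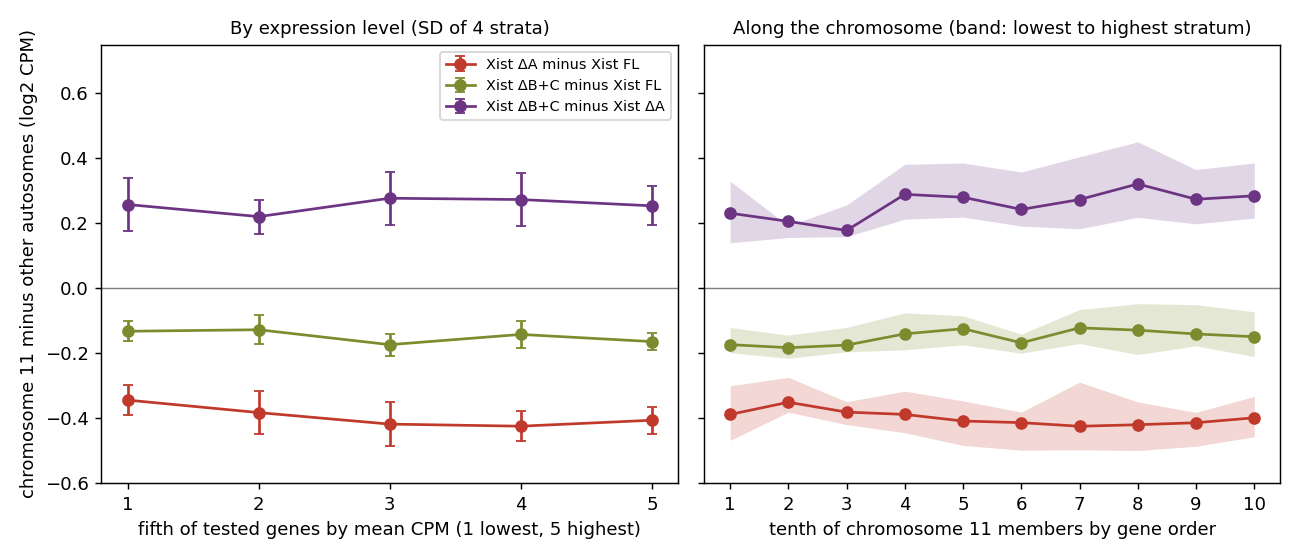
Left, chromosome 11 members minus other autosomes (difference of the 2 medians, log2 CPM, with the SD of 4 subtractions) in 5 bins of genes by mean CPM. Right, median difference of members in 10 bins by gene order along the chromosome, with a band from the lowest to the highest median of a single subtraction, outside which the median of the averaged differences can lie; the *Xist* ΔA minus *Xist* FL line stays between −0.42 and −0.35.

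Single genes were fitted with edgeR's quasi‐likelihood test over all 13191 tested genes, with Benjamini–Hochberg adjusted p‐values under 0.05 as calls. Between *Xist* ΔA and *Xist* FL, 568 members (51%) were called lower, where 12.7% of all tested genes were, and 17 members were called higher, where 12.5% were. With the replicate number as a block, which pairs libraries across groups, these became 801 lower (background 24.3%) and 37 higher (background 25.1%). Between *Xist* ΔB+C and *Xist* FL, 1 member was called lower (background 0.0531%) and 0 were called higher (background 0.121%). At an unadjusted p under 0.05 in the same edgeR fit, 260 members were lower and 8 higher, where 935 and 863 of the 13191 tested genes were. With the replicate block the calls became 242 lower (background 5.93%) and 9 higher (background 6.23%). Between *Xist* ΔB+C and *Xist* ΔA, 336 members were called higher (background 13.1%) and 23 lower (background 12.3%), and with the replicate block 617 higher (background 25.3%) and 67 lower (background 24.8%). DESeq2 called 92 members lower and 0 higher between *Xist* ΔB+C and *Xist* FL, where it called 278 of the 13191 tested genes lower and 246 higher. The count of calls thus moved with the fit.

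The 10 members with the highest mean CPM are housekeeping genes, and all 10 were lower in *Xist* ΔA than in *Xist* FL on average. *Npm1* (chr11:33152287-33163206), a nucleolar chaperone of ribosome assembly, had 4638, 4684, 4167 and 4117 CPM in *Xist* FL, 3112, 2624, 3457 and 2743 CPM in *Xist* ΔA, and 3859, 3629, 3718 and 3071 CPM in *Xist* ΔB+C. The *Xist* FL and *Xist* ΔA libraries did not overlap, and the low input library was the lowest of its line. *Actg1* (chr11:120345690-120348542), a cytoplasmic actin, had 4457, 4044, 4312 and 3999 CPM in *Xist* FL, 2578, 2674, 2508 and 2779 CPM in *Xist* ΔA, and 4058, 3970, 3934 and 4069 CPM in *Xist* ΔB+C. Here the *Xist* ΔB+C libraries overlapped with those of *Xist* FL, and *Xist* ΔA differed from *Xist* FL by −0.67 ± 0.061 (SE) on the log2 scale. *Eif4a1* (chr11:69666936-69672423), the RNA helicase of translation initiation, had 2580, 2587, 2637 and 2650 CPM in *Xist* FL, 2144, 2066, 2285 and 2147 CPM in *Xist* ΔA, and 2033, 2128, 2152 and 2154 CPM in *Xist* ΔB+C. For this gene the 2 deletion lines lay at the same level and *Xist* FL above both, so the order of the 3 lines was not the same in every member.

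The others of the 10 gave mean differences between *Xist* ΔA and *Xist* FL from −0.52 to −0.23. *Rpl19*, a ribosomal protein, averaged 1804 ± 60.2 CPM in *Xist* FL, 1260 ± 66.0 CPM in *Xist* ΔA and 1475 ± 77.4 CPM in *Xist* ΔB+C (SD, n = 4). *Ppia*, a peptidyl‐prolyl isomerase, averaged 3064 ± 35.0, 2225 ± 187 and 2384 ± 108 CPM. *Hnrnpab*, an RNA‐binding protein, averaged 1661 ± 98.0, 1415 ± 111 and 1401 ± 29.9 CPM. *Eif5a*, *Rack1*, *Rpl23a* and *Rpl27* showed differences of −0.31, −0.41, −0.52 and −0.47 between *Xist* ΔA and *Xist* FL. Several of these genes have near‐identical processed pseudogenes, so their counts may be split or shared with copies elsewhere and are uncertain to that extent.

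Genes of chromatin, signalling and cell division were lower in *Xist* ΔA as well. *Suz12* (chr11:79993106-80034123), a core subunit of Polycomb repressive complex PRC2, had 245, 248, 243 and 259 CPM in *Xist* FL, 184, 177, 172 and 156 CPM in *Xist* ΔA, and 219, 198, 249 and 231 CPM in *Xist* ΔB+C. *Xist* ΔA lay below both other lines without overlap, at −0.53 ± 0.059 (SE) from *Xist* FL. *Top2a* (chr11:98992943-99024189), the topoisomerase of dividing cells, averaged 764 ± 39.3 CPM in *Xist* FL, 543 ± 34.6 CPM in *Xist* ΔA and 692 ± 52.3 CPM in *Xist* ΔB+C. *Stat3* (chr11:100885098-100939540), the transcription factor downstream of LIF, had 40.5, 35.3, 46.0 and 39.9 CPM in *Xist* FL, 29.7, 31.1, 26.5 and 23.7 CPM in *Xist* ΔA, and 31.6, 28.0, 39.4 and 39.7 CPM in *Xist* ΔB+C. Its *Xist* ΔB+C libraries reached into both other ranges. *Brca1*, a DNA repair gene, averaged 101 ± 8.29 CPM in *Xist* FL, 77.0 ± 4.56 CPM in *Xist* ΔA and 94.3 ± 3.13 CPM in *Xist* ΔB+C.

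Some members of the same kind overlapped between the lines. *Trp53* (chr11:69580359-69591873), the p53 gene, had 394, 441, 454 and 566 CPM in *Xist* FL, 347, 493, 323 and 505 CPM in *Xist* ΔA, and 409, 467, 432 and 646 CPM in *Xist* ΔB+C. The 3 lines overlapped, with −0.14 ± 0.19 (SE) between *Xist* ΔA and *Xist* FL, and replicate 2 was above replicate 1 in all 6 groups. *Polr2a*, the largest subunit of RNA polymerase II, averaged 405 ± 75.6, 349.6 ± 47.7 and 434 ± 110.1 CPM in the same order of lines, and *Cbx2*, a PRC1 subunit, averaged 59.7 ± 11.3, 64.4 ± 4.89 and 55.3 ± 12.1 CPM. *Sox9*, a transcription factor of cartilage and other lineages, was near the filter at 1.59 ± 0.497, 1.00 ± 0.342 and 1.17 ± 0.297 CPM.

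**Figure D5:**
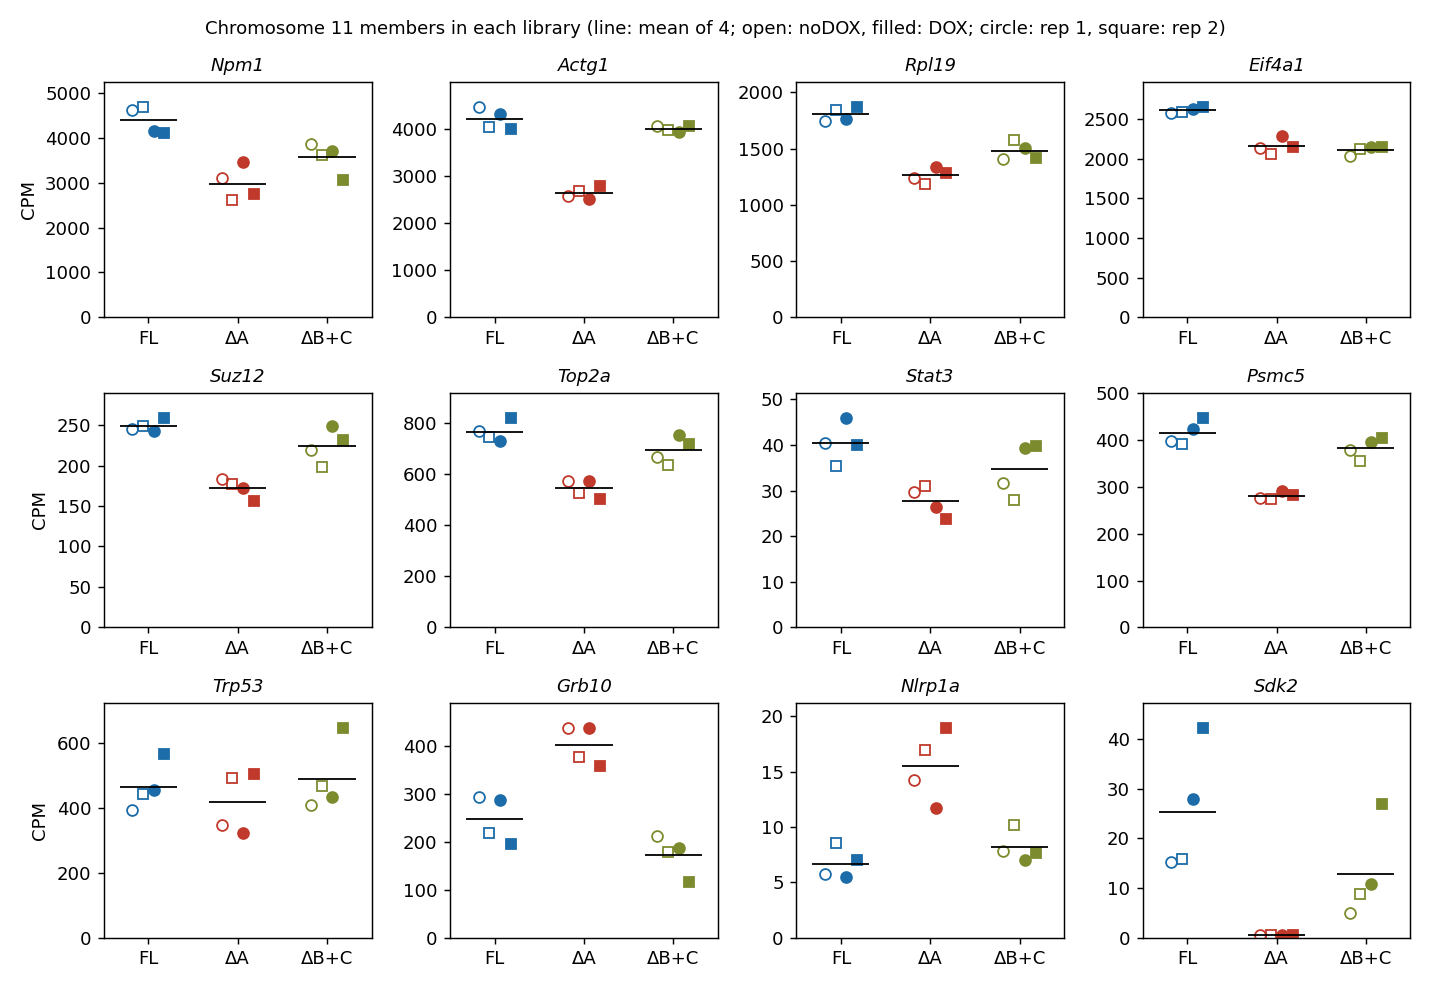
CPM of 12 chromosome 11 members in each library by line, with a line at the mean of 4; open symbols are noDOX, filled symbols DOX, circles replicate 1, squares replicate 2, and every axis starts at 0. *Npm1*, *Actg1*, *Rpl19*, *Eif4a1*, *Suz12*, *Top2a*, *Stat3* and *Psmc5* are lower in *Xist* ΔA than in *Xist* FL without overlap, *Trp53* overlaps, and *Grb10* and *Nlrp1a* are higher in *Xist* ΔA.

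Gene groups were compared by their medians, each beside the genes of the same group on the other autosomes where there were any. For *Xist* ΔA minus *Xist* FL, the median relative to the other autosomes was −0.53 over 6 cytosolic ribosomal protein genes (the 72 others at −0.08), −0.47 over 11 mitochondrial ribosomal protein genes (67 others at −0.11), −0.50 over 5 oxidative phosphorylation subunits (78 others at −0.11) and −0.59 over 7 proteasome subunits (31 others at −0.15). These groups were slightly lower over the other autosomes as a whole, and the chromosome 11 genes lay a further −0.45, −0.36, −0.39 and −0.44 below. Lower in *Xist* ΔA in all 4 subtractions were 5 of 6, 11 of 11, 5 of 5 and 7 of 7 of these members, and 0 were higher in all 4, against 74.3% and 3.05% of all members. In the proteasome group, the ATPase subunit *Psmc5* had 397, 391, 423 and 447 CPM in *Xist* FL and between 274 and 290.5 CPM in *Xist* ΔA, and the catalytic subunit *Psmb6* averaged 449 ± 46.8 and 287 ± 22.8 CPM. In the mitochondrial groups, *Mrpl12* averaged 208 ± 14.9 and 153 ± 10.3 CPM in these 2 lines, *Mrpl45* 145 ± 15.8 and 113 ± 5.41 CPM, *Atp5g1*, of the ATP synthase, 316 ± 30.9 and 208 ± 6.31 CPM, and *Atp5h* 226 ± 9.87 and 153 ± 15.8 CPM.

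Splicing factors and zinc finger genes had medians nearer to 0 than these groups. The 10 splicing factor genes had a median of −0.22 (63 others at 0.03), and 8 were lower in all 4 subtractions and 0 higher. The 19 zinc finger genes had a median of −0.25 (355 others at 0.14), with 13 lower in all 4 subtractions and 0 higher. Measured against their own group elsewhere, the offsets were −0.25 and −0.39. In the splicing group, *Prpf8*, a core spliceosome protein, averaged 1017 ± 74.0 CPM in *Xist* FL and 901 ± 98.9 CPM in *Xist* ΔA, which overlapped. Of the zinc finger genes, *Zkscan17* averaged 79.3 ± 5.21 and 53.5 ± 4.74 CPM and *Zfp207* 360.3 ± 35.9 and 296 ± 43.0 CPM.

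Regulators, transporters and structural genes varied between groups. The medians were −0.41 over 7 Mediator subunits, −0.34 over 23 cell cycle and DNA repair genes, −0.23 over 21 chromatin regulators, −0.58 over 6 genes of LIF and STAT signalling, −0.38 over 29 transcription factors, −0.48 over 15 genes of lipid and nucleotide synthesis, −0.31 over 5 translation factors, −0.46 over 10 motor proteins, −0.35 over 3 Rab GTPases, −0.45 over 15 *Tmem* genes and −0.33 over 24 solute carriers. Measured against the genes of the same group on the other autosomes, the offsets were −0.46, −0.35, −0.33, −0.46, −0.63, −0.39, −0.31, −0.45, −0.34, −0.40 and −0.27 in that order. The genes elsewhere numbered 21, 11, 13, 8, 7, 6, 56, 50, 44, 157 and 199. Some lists held mostly chromosome 11 genes, such as 35 of 42 transcription factors, so their few genes elsewhere are no genome‐wide reference. The 7 transcription factors elsewhere had a median of 0.25. The numbers lower in all 4 subtractions were 7, 20, 14, 5, 17, 14, 5, 9, 3, 13 and 14, and higher in all 4 were *Acly*, of the synthesis genes, and the solute carrier *Slc47a1*, named after its values were seen. Among them, *Med1*, which binds nuclear receptors, averaged 96.9 ± 2.03 CPM in *Xist* FL and 80.7 ± 5.11 CPM in *Xist* ΔA, and *Med24* 128 ± 18.2 and 104 ± 11.4 CPM. *Grb2*, an adaptor of receptor tyrosine kinases, averaged 108 ± 3.27 and 86.5 ± 4.13 CPM, and the fatty acid synthase gene *Fasn* 976 ± 118 and 751 ± 83.9 CPM. *Acly*, which supplies acetyl‐CoA to the same pathway, went the other way at 523 ± 52.8 and 599 ± 60.8 CPM. *Nfe2l1*, a regulator of proteasome genes, averaged 269.7 ± 45.7 and 197 ± 21.3 CPM. The chromatin regulators *Supt6* and *Bptf* averaged 408 ± 37.8 against 364 ± 23.1 CPM and 279 ± 21.5 against 247 ± 24.7 CPM, and the cell cycle gene *Ccng1* 514 ± 73.2 against 424 ± 105 CPM. The kinesin gene *Kif1c* ranged from 103 to 147 CPM in *Xist* FL and from 77.8 to 98.1 CPM in *Xist* ΔA without overlap. The myosin gene *Myo1c* averaged 141 ± 34.3 against 99.6 ± 5.49 CPM and the GTPase gene *Rab1a* 278 ± 6.70 against 252 ± 10.4 CPM, and *Rab5c* averaged 175 ± 6.46 against 139.8 ± 2.48 CPM. *Tmem97* and *Tmem11* averaged 120 ± 3.61 against 72.0 ± 3.70 CPM and 126 ± 5.89 against 92.8 ± 2.67 CPM. *Slc9a3r1*, an adaptor protein that shares only the naming of the solute carriers, averaged 289 ± 28.4 against 222 ± 21.9 CPM, and the monocarboxylate transporter *Slc16a3* 234 ± 27.6 against 261 ± 48.7 CPM.

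A few groups were low or mixed. The *Hoxb* cluster, a row of homeobox genes that is near silent at this stage, had 5 of its 11 genes among the members, with a median of −0.04, 1 lower in all 4 subtractions (*Hoxb1*) and 1 higher (*Hoxb9*, named after its values were seen). *Hoxb1* averaged 2.77 ± 0.775 CPM in *Xist* FL and 1.86 ± 0.571 CPM in *Xist* ΔA, and *Hoxb3* 1.80 ± 0.727 and 1.70 ± 0.228 CPM. The 5 keratin members had a median of −0.89, and 3 were lower in all 4 subtractions, but the 3 keratin genes on other autosomes lay at −1.40. Of 85 olfactory receptor genes on chromosome 11 only *Olfr1372-ps1* was a member, and of 11 chemokine genes none was. The 4 imprinted members had a median of −0.10, with 2 lower and 2 higher in all 4 subtractions. Among the imprinted genes, *Commd1* had 109, 100.5, 105 and 93.8 CPM in *Xist* FL and 61.8, 52.8, 68.3 and 53.9 CPM in *Xist* ΔA, a difference of −0.78. *Commd1* spans *Zrsr1* on the opposite strand, which had 16.7 to 19.9 CPM in *Xist* FL and 22.2 to 24.2 CPM in *Xist* ΔA, and no strand option is named for the counting, so reads of this pair cannot be told apart where they overlap.

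Group medians for *Xist* ΔB+C minus *Xist* FL were smaller and lay mostly below 0, with the *Hoxb* cluster (0.21) and the keratins (0.03) above it. They were −0.33 for cytosolic ribosomal proteins, −0.30 for mitochondrial ribosomal proteins, −0.27 for oxidative phosphorylation subunits and −0.27 for proteasome subunits, −0.12 for splicing factors, −0.20 for zinc finger genes, −0.13 for cell cycle genes, −0.05 for chromatin regulators and −0.05 for motor proteins. The first 4 groups were again lower elsewhere in the genome too, at −0.16, −0.10, −0.13 and −0.20, which left −0.17, −0.20, −0.14 and −0.06 to chromosome 11. Lower in *Xist* ΔB+C in all 4 subtractions were 5 of 6, 10 of 11, 5 of 5 and 6 of 7 of these members, 6 of 10 splicing factors, 14 of 19 zinc finger genes, 13 of 23 cell cycle genes, 6 of 21 chromatin regulators and 4 of 10 motor proteins, against 49.2% of all members. Without the low input library the medians of the first 4 groups were −0.27, −0.29, −0.22 and −0.28, and those of the *Hoxb* cluster and the keratins 0.28 and −0.18, so that the keratins changed side.

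The members that departed most from the shared shift were chosen among those with a mean of at least 5 CPM and the same sign in all 4 subtractions. *Sdk2* (chr11:113776374-114067046), a cell adhesion protein of synapses, was the lowest in *Xist* ΔA. It had 15.2, 15.9, 28.0 and 42.3 CPM in *Xist* FL, 0.516, 0.438, 0.445 and 0.486 CPM in *Xist* ΔA, and 4.90, 8.85, 10.8 and 26.9 CPM in *Xist* ΔB+C. In *Xist* ΔA it was near background in all 4 libraries, at −5.62 ± 0.39 (SE) from *Xist* FL, far beyond the chromosome‐wide shift. The epithelial keratin gene *Krt19* and the type I collagen gene *Col1a1* came next, at −2.84 and −2.58. *Krt19* had 113, 15.2, 103 and 12.6 CPM in *Xist* FL and 13.8, 4.69, 10.9 and 4.64 CPM in *Xist* ΔA, and *Col1a1* had 37.9, 5.58, 37.2 and 7.70 CPM in *Xist* FL and 6.58, 3.31, 3.29 and 2.19 CPM in *Xist* ΔA. Both were several times higher in replicate 1 than in replicate 2 of *Xist* FL, and *Col1a1* is itself one of the summed fibroblast markers given above, whose part in these differences was not tested.

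In the other direction, *Nlrp1a* (chr11:71092236-71144704), an inflammasome sensor, was the highest in *Xist* ΔA relative to *Xist* FL at 1.22 ± 0.20 (SE). It had 5.72, 8.53, 5.45 and 7.01 CPM in *Xist* FL, 14.3, 17.0, 11.7 and 18.9 CPM in *Xist* ΔA, and 7.83, 10.2, 7.05 and 7.66 CPM in *Xist* ΔB+C. *Fgf18*, a fibroblast growth factor, followed at 1.19 ± 0.44 (SE) without a call, and *Sez6*, a neuronal membrane protein, at 0.95 ± 0.21. *Fgf18* had 3.83, 5.33, 6.44 and 11.15 CPM in *Xist* FL and 7.25, 20.8, 6.57 and 23.5 CPM in *Xist* ΔA. These ranges overlapped, and the difference lay mainly in replicate 2. *Grb10* (chr11:11930508-12038683), an imprinted adaptor that restrains growth, was higher in *Xist* ΔA at 0.70 ± 0.18 (SE). It had 292, 217, 287 and 195 CPM in *Xist* FL, 436, 375, 437 and 358 CPM in *Xist* ΔA, and 211, 179, 186 and 115 CPM in *Xist* ΔB+C. *Xist* ΔA lay above both other lines without overlap, opposite to the chromosome, and the difference between *Xist* ΔB+C and *Xist* ΔA was −1.24 ± 0.18 (SE).

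*Calcoco2*, an autophagy receptor, was among the highest in *Xist* ΔB+C relative to both other lines. It had 11.2, 36.4, 22.2 and 49.7 CPM in *Xist* FL, 2.16, 10.3, 2.96 and 9.26 CPM in *Xist* ΔA, and 16.1, 44.99, 42.7 and 88.9 CPM in *Xist* ΔB+C, with replicate 2 above replicate 1 in all 6 groups. *Wscd1*, a sulfotransferase gene, averaged 14.2 ± 4.04, 8.55 ± 0.843 and 18.3 ± 7.26 CPM in the same order of lines. *Ntn1*, the axon guidance cue netrin‐1, averaged 15.5 ± 3.70, 12.9 ± 6.61 and 8.29 ± 1.67 CPM. Without the low input library the *Xist* ΔB+C mean of *Wscd1* was 15.1 ± 4.16 CPM and that of *Calcoco2* 34.6 ± 16.1 CPM (SD, n = 3). These means lack a DOX replicate 2 library, so they are not balanced with those of the other lines. *Wscd1* was higher with DOX in *Xist* FL too, at 10.8 and 10.7 CPM without and 17.2 and 18.2 CPM with it. Input, treatment and replicate number cannot be told apart in these lower means. The 1 member called between *Xist* ΔB+C and *Xist* FL without the block, named after its values were seen, was *AI662270*. It had 9.55, 9.23, 8.68 and 9.08 CPM in *Xist* FL, 0.221, 0.406, 0.272 and 0.364 CPM in *Xist* ΔA, and 1.97, 2.79, 2.08 and 4.15 CPM in *Xist* ΔB+C, a difference of −1.76 ± 0.24 (SE) between the last line and *Xist* FL. The 3 lines did not overlap.

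Whether DOX changed chromosome 11 was asked within each line, where the clone is held constant. In *Xist* ΔA the median of the members moved against the other autosomes by 0.01 and 0.01 in replicates 1 and 2. In *Xist* FL it moved by 0.06 and 0.10, and in *Xist* ΔB+C by 0.06 and 0.16, the last from the low input library. In *Xist* FL chromosome 14 moved by 0.08 and 0.07, a similar amount. Chromosomes 13 (−0.06 and −0.08) and 19 (−0.04 and −0.09) moved the other way in that line. In *Xist* ΔB+C chromosome 19 moved by −0.11 and −0.12. The chromosome 11 difference for *Xist* ΔA minus *Xist* FL widened with DOX, from a mean of −0.36 in noDOX to −0.43 in DOX. The differences between lines were already present in noDOX.

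In the fit without the replicate block, few members responded singly. In *Xist* FL, 1 member rose with DOX (background 0.144%) and 3 fell (background 1.09%), and in *Xist* ΔB+C 15 rose (1.35% of members, background 0.811%) and 3 fell (0.27%, background 2.13%). In *Xist* ΔA 0 rose (background 0.00758%) and 0 fell (background 0%) by edgeR's quasi‐likelihood test, and DESeq2 and limma‐voom also called 0. At an unadjusted p under 0.05 in edgeR, 3 members were higher and 9 lower in this line, where 32 and 117 of the 13191 tested genes were. With the replicate block, 103 members rose in *Xist* FL (9.25%, background 5.72%) and 29 fell (2.61%, background 8.13%), and in *Xist* ΔB+C 212 rose (19%, background 9.89%) and 51 fell (4.58%, background 12%). In the fit without the block, leaving out the low input library raised the *Xist* FL calls and lowered the *Xist* ΔB+C calls. This held among members and over all tested genes alike. It left *Xist* ΔB+C with a lone DOX library, which was assumed to vary like the other groups. With the block, 10 of the 29 transcription factors rose and 2 fell in *Xist* FL, 11 rose and 2 fell in *Xist* ΔB+C, where without the block 0 rose and 1 fell in *Xist* FL and 2 rose and 1 fell in *Xist* ΔB+C. Shares differed between groups with the block. Of the 10 motor proteins, 4 rose and 0 fell in each of these lines. Among the 24 solute carriers, 7 rose and 1 fell in *Xist* ΔB+C, while 1 rose and 1 fell in *Xist* FL. The 21 chromatin regulators had 6 rising and 2 falling in *Xist* ΔB+C, against 3 rising and 1 falling in *Xist* FL. Without the block, 0 of these were called. With the block, 0 of the 6 cytosolic ribosomal protein, 7 proteasome and 10 splicing factor genes changed in either line. Of the 19 zinc finger genes, 1 rose and 1 fell in each line. The 15 *Tmem* genes had 1 rising and 1 falling in *Xist* ΔB+C, against 0 called in *Xist* FL. The same groups on other autosomes were not counted for DOX.

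*Irf1* (chr11:53770014-53778374), a transcription factor of the interferon response, fell with DOX in the full‐length and the ΔB+C line. It had 146 and 157 CPM in noDOX and 77.9 and 67.2 CPM in DOX in *Xist* FL, a change of −1.06 ± 0.12 (SE, adjusted p = 0.00625 by edgeR's quasi‐likelihood test). In *Xist* ΔB+C it had 114 and 106 CPM in noDOX and 65.5 and 55.5 CPM in DOX, a change of −0.89 ± 0.12 (adjusted p = 0.00783 by edgeR). In *Xist* ΔA it had 82.1 and 75.7 CPM in noDOX and 99.7 and 84.5 CPM in DOX, which did not pass the test. The noDOX and DOX libraries did not overlap in any of the lines, and the *Xist* ΔA noDOX level was already the lowest of the noDOX levels.

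*Car4* (chr11:84957786-84966044), a membrane carbonic anhydrase, fell in the same lines, by 0.66 on the log2 scale in *Xist* FL (adjusted p = 0.038 by edgeR) and by 0.72 in *Xist* ΔB+C (adjusted p = 0.0166 by edgeR). Its levels were 73.2 and 79.5 CPM without DOX and 47.3 and 49.7 CPM with DOX in *Xist* FL, 79.8 and 75.4 CPM and then 51.4 and 44.6 CPM in *Xist* ΔB+C, and between 55.9 and 72.7 CPM in *Xist* ΔA. *Alox15*, a lipoxygenase, fell from 25.4 and 22.2 CPM to 11.3 and 11.9 CPM in *Xist* FL. *Tspoap1*, which encodes a binding partner of the mitochondrial protein TSPO, named after its values were seen, fell in *Xist* ΔB+C from 11.8 and 11.1 CPM to 7.26 and 6.45 CPM. The zinc finger gene *Zfp750*, also named after its values were seen, was the only member called as rising in *Xist* FL without the block, from 7.76 and 5.38 CPM to 14.6 and 16.2 CPM, and it rose in *Xist* ΔB+C from 6.36 and 4.92 CPM to 14.4 and 17.7 CPM.

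In *Xist* ΔB+C, *Sgsm2*, a regulator of Rab GTPases, rose from 45.4 and 38.7 CPM to 72.1 and 75.7 CPM (0.78 ± 0.10, SE, adjusted p = 0.00702 by edgeR). In *Xist* FL it had 46.4 and 44.3 CPM without and 57.0 and 64.3 CPM with DOX, and in *Xist* ΔA 39.2 and 39.1 CPM without and 35.7 and 33.3 CPM with DOX. *Pisd-ps1*, a pseudogene whose reads may be shared with its parent gene *Pisd*, rose from 42.7 and 42.2 CPM to 66.3 and 72.4 CPM in *Xist* ΔB+C. The other members that rose in this line, named after their values were seen, had changes from 0.41 (*H2afv*, a histone variant) to 1.76 (*Tbx4*, a T‐box factor), among them *Thra*, a thyroid hormone receptor (0.86), *Tob1*, an antiproliferative factor (0.97), and *Ctc1*, of the telomere capping complex (0.75). In *Xist* ΔA the members with the smallest p‐values were *Usp34*, *Cyb5d1* and *Rel*, none of which passed the test, with changes of −0.34, −0.36 and 0.88. Leaving out 1 library removed the calls of *Irf1*, *Car4*, *Alox15*, *Sgsm2* and *Pisd-ps1* in some cases, and fitting each compared line alone removed all of them.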

How the data were processed

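RNA‐seq libraries were grouped by their labels, also where a file name of a noDOX library contained the word DOX. The authors mapped read pairs to mm10 with TopHat2 and counted pairs over the exons of refFlat genes with featureCounts 1.5.1, and the deposited values are raw counts per gene, without normalization. The counting options that the study names include none for strand, so reads of overlapping genes on opposite strands cannot be told apart. Each library held 31337490 to 41240470 counts. Members, gene lists and tests were chosen with earlier results of these data known. CPM used library totals, with 0.5 added before log2. Genes with at least 1 CPM in 6 libraries were fitted with edgeR 4.0.16 (quasi‐likelihood, robust, 6 group means, TMM on expressed autosomal genes, factors 0.978 to 1.02) in R 4.3.3, with adjustment over 13191 genes and a threshold of 0.05. The common coefficient of variation was 0.173 with 6 residual degrees of freedom. Alternatives were DESeq2 1.42.0, limma‐voom (limma 3.58.1), other scalings and filters, and leaving out libraries. Steps were tested on simulated counts.

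Replicate numbers pair the libraries: deviations of same‐numbered libraries from their group means correlated in all 15 pairs of groups (r from 0.39 to 0.78 across genes), so a fit with the replicate number as a block is given beside the first for counts of called members. The study describes the replicates as biological duplicates, and each genotype is a single line, so p‐values measure only the spread between duplicates of that line. Named genes were the 10 members with the highest mean CPM, the 3 highest and 3 lowest per pair of lines (mean of at least 5 CPM, same sign in 4 subtractions), 2 per gene list by mean CPM, a fixed set of 10 genes, and the 3 smallest p‐values for DOX per line. Positions came from GENCODE vM21. Promoter sequences were matched to fewer than 80% of members, so a check of their base composition was void.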

Additional observations from a re-analysis of the deposited data

Results flagged for a closer look

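Among the members named for their DOX response, 5 moved one way in both replicates of one line and the opposite way in both of another; the difference itself was not tested, and groups of 2 replicates allow no test for outlying libraries. *Irf1* changed by −0.90 and −1.22 (log2 CPM, replicates 1 and 2) in *Xist* FL and by 0.28 and 0.16 in *Xist* ΔA, a difference of −1.28. It changed by −0.79 and −0.93 in *Xist* ΔB+C, so *Xist* ΔA lay 1.08 above that line. *Car4* changed by −0.62 and −0.67 in *Xist* FL against 0.23 and 0.08 in *Xist* ΔA, a difference of −0.80, and *Xist* ΔA lay 0.84 above *Xist* ΔB+C. *Sgsm2* changed by 0.29 and 0.54 in *Xist* FL against −0.13 and −0.23 in *Xist* ΔA, a difference of 0.59, and *Xist* ΔA differed from *Xist* ΔB+C by −0.99. *Pisd-ps1* differed by 0.42 between *Xist* FL and *Xist* ΔA and by −0.82 between *Xist* ΔA and *Xist* ΔB+C. *Cyb5d1* changed by −0.29 and −0.49 in *Xist* ΔA and by 0.14 and 0.24 in *Xist* ΔB+C, a difference of −0.58.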

How the results depend on the processing

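The chromosome 11 shift kept its sign in all 3 pairs of lines under every filter, pseudocount, summed‐count share and subset tried, and moved by more than 1 SD only for *Xist* ΔA minus *Xist* FL without the CPM filter (genes with 1 count in 6 libraries), to −0.32. The values without the low input library, the subset without DOX replicate 2 and the share without the 10 highest members were added after seeing the data. Leaving out replicates gave shifts of −0.41 to −0.38, −0.17 to −0.13 and 0.22 to 0.28.

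Counts of called members are given for *Xist* ΔB+C minus *Xist* FL (1 in the fit reported), *Xist* ΔB+C minus *Xist* ΔA (359), and DOX in *Xist* FL (4) or *Xist* ΔB+C (18). With the paired fit (replicate block) they were 251, 684, 132 and 263. With DESeq2 the ΔB+C minus FL count was 92 and the DOX counts were 27 and 82, and with only the compared lines all 3 were 0. Calls over all tested genes also rose with the block and with DESeq2 and fell with only the compared lines. The ΔB+C minus FL count was 4 with limma‐voom, 2 with TMM on all expressed genes and 2 with a minimum of 5 CPM. Leaving out 1 library gave 0 to 1, 234 to 382, 0 to 8 and 0 to 30, with fewer libraries in the fit. The ΔB+C minus ΔA count fell to 234 without *Xist* ΔA noDOX replicate 2. The DOX count of *Xist* FL was 1, 0, 2 and 0 without the *Xist* FL libraries in turn, 2 without either noDOX library of another line, and 8 without either *Xist* ΔB+C DOX library. The DOX count of *Xist* ΔB+C was 1 and 0 without the *Xist* ΔB+C noDOX libraries, 30 without DOX replicate 1 and 0 without DOX replicate 2. The ΔB+C minus FL count was 0 without any library but *Xist* ΔB+C DOX replicate 2. The count for *Xist* ΔA minus *Xist* FL (838 with the replicate block) stayed within 1.5 times of 585, and that for DOX in *Xist* ΔA at 0. The cause of these moves was not tested.

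Of 77 named genes and comparisons, 5 values reversed, all without a call. *Hoxb3* between *Xist* ΔA and *Xist* FL was 0.044 with limma‐voom and −0.33 to 0.37 with libraries left out, and *Trp53* was −0.33 to 0.0019. Another 105 values lost and 51 gained a call, against 1528 on the same side.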
